A study of Mus musculus with 24 samples.

Results

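The response of the mouse otocyst to a block of FGFR2b ligands was compared after 12 hours and after 24 hours of exposure, with both exposures ending at embryonic stage E10.25. The otocyst is the epithelial vesicle that forms the inner ear. The libraries were chosen by their labels: those exposed for 12 hours from E9.75 (E9.75+12h) and those exposed for 24 hours from E9.25 (E9.25+24h). They make up 14 of the 22 RNA sequencing libraries of the series whose counts could be matched to a sample. Control embryos (con) were Rosa26rtTA/+, which make the doxycycline-dependent activator rtTA from the widely expressed Rosa26 locus. Experimental embryos (R2b) were Rosa26rtTA/+;Tg(tetO-s(dn)Fgfr2b)/+ and had, beside rtTA, a tetO transgene that yields a soluble FGFR2b fragment acting as a dominant negative. Both genotypes thus carried rtTA, and both were exposed to doxycycline: the pregnant females were injected with 1.5 mg/kg and afterwards ate chow that contained 200 mg/kg. A library is a pool of otocyst epithelia of 1 genotype from 1 litter, and the labels do not give the number of embryos in a pool. The E9.75+12h groups hold 3 con and 3 R2b pools, and the E9.25+24h groups hold 4 and 4. An exposure that lasted longer also began earlier, so duration and stage at the start cannot be told apart in this design. In bulk pools, fewer cells of a type and less RNA per cell cannot be told apart either.

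FGF receptors of the IIIb splice form are made by epithelia and bind ligands such as FGF3, FGF7 and FGF10. A secreted receptor domain binds those ligands and keeps them from the receptors at the cell surface. Receptor signalling through the RAS and ERK kinases raises transcription of the PEA3 group of ETS factors and of inhibitors that dampen the same pathway, among them the Sprouty and Spred proteins and the phosphatase Dusp6. In the otic epithelium FGF signals also act in patterning, in the growth of the vesicle and in the formation of the neuroblasts that leave it to build the inner ear ganglion.

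Library totals were 18.7 to 25.8 M counts. Levels are given as counts per M counts (CPM) after scaling, by pool number. All 10 otic and epithelial markers looked at, among them Pax2, Eya1 and Epcam, were present in every pool, with a lowest value of 11.0 CPM. Transgene reads fall on Fgfr2 and on Ighg1, which codes for an immunoglobulin constant region. Ighg1 was at 0.0473 to 1.95 CPM in the con pools. It was at 1477, 3009 and 1008 CPM in the E9.75+12h R2b pools and at 1210, 1332, 1869 and 1437 CPM in the E9.25+24h R2b pools, so the labels and the transgene matched in all 14 libraries. Mitochondrial genes took 4.00% to 6.69% of counts at E9.75+12h and 1.53% to 1.70% at E9.25+24h. Litter 4 of E9.25+24h stood apart in markers of neighbouring tissue. Its con and R2b pools had summed mesenchyme markers of 1335 and 1225 CPM, against 88.7 to 437 CPM in the other E9.25+24h pools. Its con pool was also highest in blood, endothelium and hindbrain markers. The otic neuroblast results below are given with and without that con pool, and for other genes not every result is.

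At E9.75+12h, 4180 of 15533 genes tested (26.9%) passed the threshold, an adjusted p (FDR) of edgeR's quasi-likelihood test under 0.05. Of these, 1689 rose in R2b (10.9% of genes tested) and 2491 fell (16.0%). At E9.25+24h, 2006 genes passed (12.9%), 1290 up (8.30%) and 716 down (4.61%). Con and R2b pools did not overlap in 5923 genes at 12 hours (38.1%) and in 3394 genes at 24 hours (21.9%). With median-of-ratios scaling the 24-hour calls were 1191 up and 960 down instead, and with DESeq2 1447 up and 1361 down. The gap between the exposures also depended on the fit. With each exposure fitted alone, 2973 genes passed at 12 hours and 2335 at 24 hours. With con and R2b pools paired by litter (the litter block), 5026 and 2979 passed. The median effect over all genes was -0.01 at 12 hours and -0.02 at 24 hours on the log2 scale. Of the called genes, 793 rose in both exposures and 537 fell in both. Those that fell in both had a median size of effect of 0.60 at 12 hours and 0.35 at 24 hours, whereas those that rose in both stood at 0.70 and 0.71. Genes called at 12 hours were picked for a large effect there, so a smaller effect at 24 hours is in part set by that choice, and the same holds the other way round.

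The difference of the effects (effect at 24 hours minus effect at 12 hours) was then tested gene by gene. A single gene passed, the kinetochore gene Cenpf, which is 0.00644% of genes tested. At an unadjusted p under 0.05 there were 1740 genes (11.2%), 1238 with a positive difference (7.97%) and 502 with a negative one (3.23%). A positive difference means either a fall that was smaller at 24 hours or a rise that was larger. The number of genes that passed depended on 1 pool. It was 913 without R2b pool 2 of E9.75+12h and 858 without both pools of that litter, 0 to 16 without any other pool or litter, 57 with the litter as a block, and 112 with DESeq2. It was 0 in 16 of the 21 fits that left out a pool or a litter, so the call of Cenpf was lost in those. For that reason the groups of genes below are described by how many members had an unadjusted p under 0.05, beside the shares over all genes, and by intervals. The lists were chosen with earlier results of these data known, so such counts are descriptions and not tests. The plot of list medians sets out where groups moved between the exposures.

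**Figure D1:**
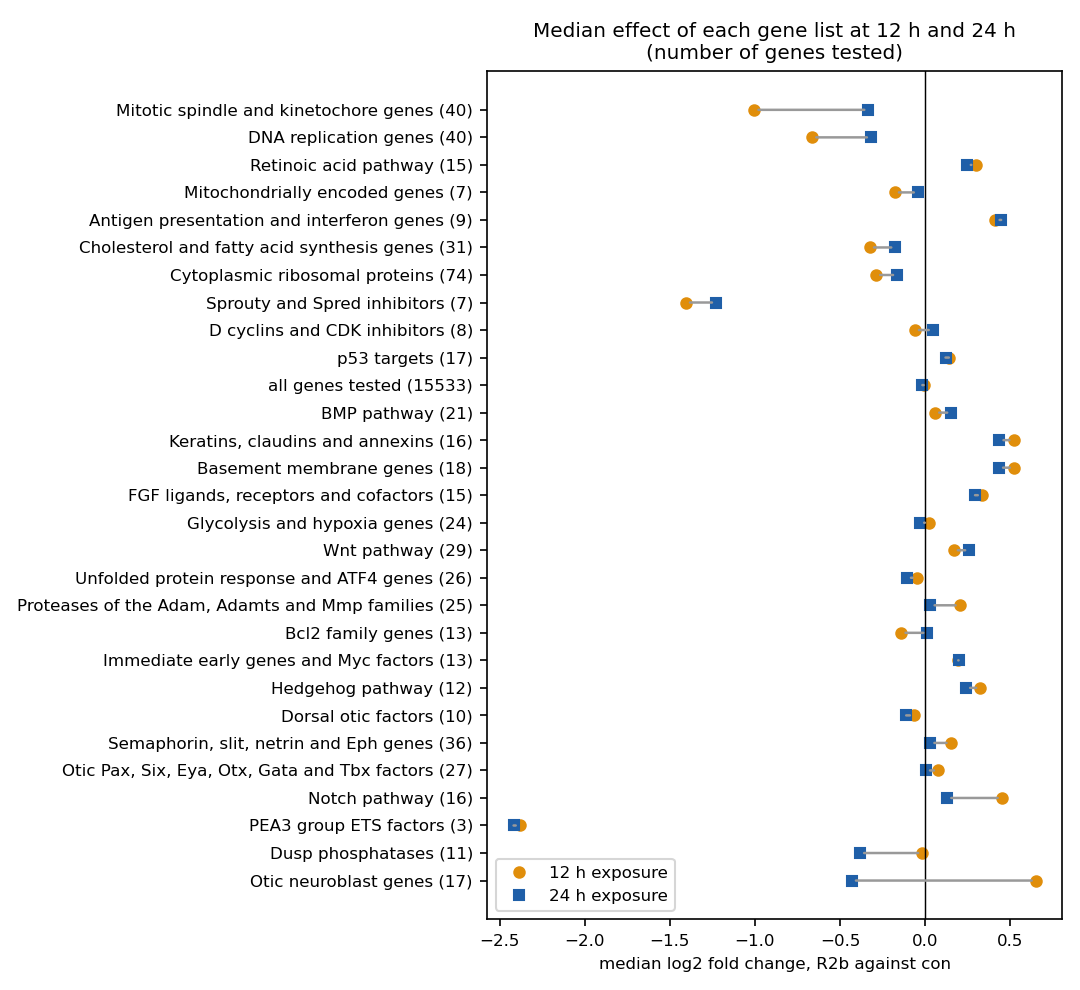
Median log2 fold change of R2b against con for each gene list (vertical axis, number of genes tested in brackets) at 12 hours (circles) and 24 hours (squares), joined by a line. Long lines belong to otic neuroblast genes (0.65 and -0.43) and mitotic genes (-1.004 and -0.33), while the PEA3 group factors stayed at -2.38 and -2.42.

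The immediate targets of FGF signalling fell in both exposures and to a like extent. All 3 PEA3 group factors and all 7 genes tested of the Sprouty, Spred and Il17rd inhibitors fell at 12 hours and again at 24 hours. Over all genes 16.0% fell at 12 hours and 4.61% at 24 hours. The median of the PEA3 group was -2.38 and -2.42, and that of the Sprouty and Spred list -1.41 and -1.23. Etv5, a PEA3 group transcription factor, was at 97.6, 94.3 and 100.4 CPM in con and 11.8, 12.5 and 32.3 CPM in R2b at 12 hours. Its 24-hour levels were 114, 109, 116 and 107 CPM in con and 21.8, 18.2, 11.7 and 31.9 CPM in R2b. The R2b pools lay far below every con pool in both exposures. The difference of the effects of Etv5 was -0.04, with a 95% interval of -0.98 to 0.91. Etv4, of the same group, fell by 2.56 and by 2.81 on the log2 scale. Its R2b pools were at 3.47, 4.82 and 15 CPM at 12 hours and at 6.40, 3.48, 1.19 and 8.87 CPM at 24 hours, with con pools at 27.1 to 49.1 CPM. Etv1 fell by 1.33 and by 1.66, but its 12-hour call was lost in 16 of 30 alternatives.

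Spry1, which codes for a Sprouty inhibitor of receptor tyrosine kinase signalling, was at 48.6, 41.3 and 37.6 CPM in con and 13.3, 15.3 and 19.5 CPM in R2b at 12 hours. After 24 hours it stood at 32.6, 27.4, 36.4 and 27.2 CPM in con and 14.8, 10.8, 14.6 and 13.4 CPM in R2b. The groups did not overlap in either exposure, and the difference of the effects was 0.20 (interval -0.26 to 0.67). Spry2 behaved alike, with effects of -1.42 and -1.26 and a difference of 0.16 (-0.28 to 0.61). Spred1 and Spred2, which hold back activation of RAF, fell by 0.86 and 1.26 at 12 hours and by 0.66 and 1.23 at 24 hours. Spred3 had the largest effect of the list in both exposures, -2.15 and -2.25. Il17rd, also called Sef, had the smallest, -0.45 and -0.36. Dusp6, the phosphatase that acts on ERK, fell by 1.80 and by 1.67. None of these genes had a difference with an unadjusted p under 0.05. That does not show equal effects: the interval of Etv4 ran from -1.75 to 1.24, while that of Spred1 ran from -0.12 to 0.51. Without both pools of litter 1 at 12 hours, only 1 of the 3 PEA3 group factors was called there. Dusp1, a phosphatase of MAP kinases, was at 12.9 to 13.3 CPM in con and 11.3 to 12.9 CPM in R2b at 12 hours, and fell at 24 hours by 0.59 (FDR 0.00282). Of 13 immediate early and Myc genes, 3 rose and 1 fell at 12 hours, where 10.9% and 16.0% of all genes did. At 24 hours 1 rose and 1 fell, where 8.30% and 4.61% of all genes did. The one that fell in both was Mycn, a growth-promoting MYC factor, by 1.22 and by 0.95. Fosl2, an AP-1 subunit, had the largest rise at 12 hours, 1.002, and Jun, another, rose by 0.29 and by 0.33. The rises at 12 hours were 1 without any single pool of E9.75+12h other than R2b pool 2.

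**Figure D2:**
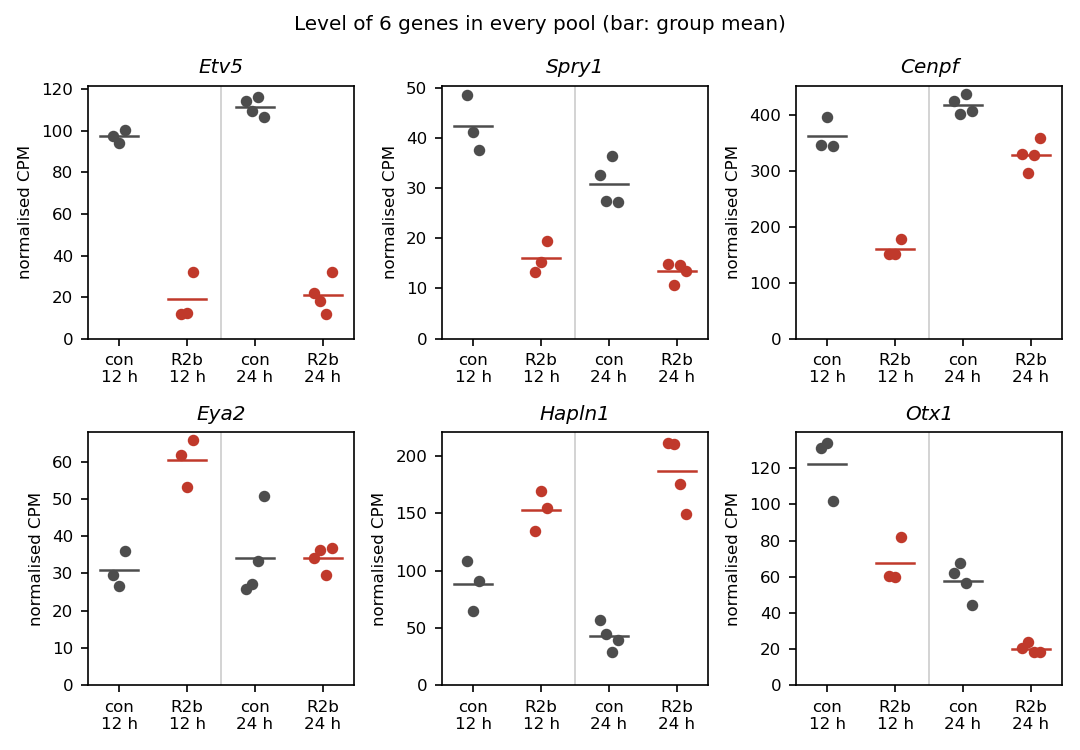
Level of 6 genes in every pool (vertical axis, scaled CPM from 0), con in grey and R2b in red, with the group mean as a bar. Etv5 and Spry1 are low in R2b in both exposures, and Cenpf falls further at 12 hours. Eya2 is above con in every 12-hour R2b pool (53.3 to 65.9 CPM), and its groups overlap at 24 hours. Its 24-hour effect is 0.25 on the log2 scale without con pool 4 of that exposure, and does not pass (edgeR FDR 0.23). Hapln1 separates more at 24 hours. Otx1 is below con in the R2b pools of both exposures. Its fold change is larger at 24 hours, but its levels in con and R2b are lower there.

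Some genes of FGF ligands, receptors and their cofactors rose. Of 15 genes tested, 3 rose and 0 fell at 12 hours (5 rose with the litter block, 6 with DESeq2, and 1 without R2b pool 1), where 10.9% of all genes rose, and 6 rose and 0 fell at 24 hours, where 8.30% of all genes rose (2 or 3 rose without con pool 1 or 2, without R2b pool 3, or without both pools of litter 1 or 2). Fgf8 rose by 1.96 and by 1.64, and was at 0.411 to 1.63 CPM in con and 3.64 to 5.48 CPM in R2b at 12 hours. Fgf3, a ligand that the soluble receptor binds, had an effect of 0.83 at 12 hours without passing and rose by 0.93 at 24 hours. Flrt3, a membrane protein that associates with FGF receptors, was the list's only member with a difference at an unadjusted p under 0.05. It had an effect of 0.33 at 12 hours and rose by 0.71 at 24 hours, with a difference of 0.37 (0.03 to 0.71).

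Genes of the mitotic spindle and kinetochore formed the clearest group with a fall at 12 hours that was smaller at 24 hours. All 40 members tested fell at 12 hours, against 16.0% of all genes. The median effect was -1.004, with a range of -1.21 to -0.68. At 24 hours 21 of the 40 fell, against 4.61% of all genes, the median was -0.33, and every member's effect was below 0 (-0.57 to -0.22). The difference was positive for all 40, each at an unadjusted p under 0.05, with a median of 0.68, against 7.97% and a median of 0.04 over all genes. In the 29 alternatives with a difference, 35 to 40 members kept an unadjusted p under 0.05 with a positive sign, and the median stayed between 0.57 and 0.80. All 40 remained called at 12 hours in each of the 30 alternatives there. The 24-hour count was less stable: 35 with the litter block, 32 with DESeq2, and 4 to 9 without con pool 3 or 4, without R2b pool 1 or 2, or without both pools of litter 1, 2 or 3. By FDR, 1 member passed for the difference, 16 with the litter block, and 26 without R2b pool 2 of E9.75+12h. These genes are strongly co-expressed, so the members are not independent of each other. The list was also chosen with earlier results of these data known, so its counts describe these pools and are not a test.

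Cenpf (chr1:189640606-189688086 on GRCm38, minus strand), a large protein of the outer kinetochore and the nuclear matrix, was at 346, 396 and 345 CPM in con and 152, 151 and 178 CPM in R2b at 12 hours. The 24-hour pools were at 425, 402, 438 and 407 CPM in con and 331, 296, 328 and 359 CPM in R2b. All R2b pools lay below all con pools in both exposures, by a wider gap at 12 hours. The effect was -1.18 (SE 0.09, FDR 7.18e-06) at 12 hours and -0.35 (SE 0.07, FDR 0.00704) at 24 hours. Their difference was 0.83, with an interval of 0.59 to 1.07 (edgeR FDR 0.0487). Cenpe, the kinetochore motor that carries chromosomes to the spindle equator, went from 211 to 239 CPM in con to 82.9 to 105 CPM in R2b at 12 hours, and from 239 to 257 CPM to 177 to 219 CPM at 24 hours. Its difference was 0.86 (0.59 to 1.14, FDR 0.0573, and 0.0409 with the litter as a block). Aspm, which organises spindle poles, had effects of -1.03 and -0.34, and Nuf2, a subunit of the NDC80 complex that holds microtubules, -1.15 and -0.33. Beyond the list, Cep55, needed to cut the bridge between daughter cells, fell by 1.10 and by 0.32, and Cip2a, an inhibitor of the phosphatase PP2A, fell by 1.22 and by 0.35. Both had differences whose intervals lay above 0, at 0.52 to 1.03 for Cep55 and 0.54 to 1.204 for Cip2a. With the litter block the differences of Cep55, Aspm, Cip2a and Nuf2 passed as well, each at FDR 0.0458 by edgeR's test. These 6 genes were named for the smallest p of the difference among 899 eligible genes with a smaller fall at 24 hours, so their differences are the extremes of that class. Cdk1, the kinase that drives entry into mitosis, was at 157, 145 and 150 CPM in con against 61.0, 75.0 and 84.4 CPM in R2b at 12 hours. Its 24-hour levels were 202 to 259 CPM against 171 to 204 CPM, so that the ranges met, and the effect of -0.31 did not pass (FDR 0.0567).

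Since the members moved together, their promoters were looked at. Promoter windows from RefSeq (GRCm38.p6, 250 bases before to 50 after a start) were found for 35 of the 40 genes, 38 windows in all. A pair of motifs known from cell cycle promoters were searched on both strands. TTTGAA, the core of the cell cycle gene homology region, was the first, and the other was CCAAT, the box bound by NF-Y. They do not overlap each other. TTTGAA was in 28 of the 38 windows (73.7%), against 11.8% of the 14532 windows of all genes tested, and CCAAT was in 29 (76.3%), against 37.3%. In the 34 windows of DNA replication genes the shares were 11.8% and 52.9%. In the 17 windows of otic neuroblast genes they were 5.88% and 64.7%, so a high share of CCAAT was not particular to the mitotic list. A further motif searched, CCGGAAG, a core that ETS factors bind, was in 10 of the 38 windows (26.3%), against 15.9% of all, and in 26.5% of those of DNA replication genes. It occurs unmarked in the Cenpf stretch. A match is only a match of letters. The 150 bases before the start are shown for Cenpf, which passed the test of the difference, for Cdk1 and Mki67, which have both motifs there, and for Aspm, which has CCAAT only. Each is written 5′ to 3′ on the gene's own strand, and capitals mark both motifs, on either strand.
Cenpf, chr1:189688087-189688236, minus strand: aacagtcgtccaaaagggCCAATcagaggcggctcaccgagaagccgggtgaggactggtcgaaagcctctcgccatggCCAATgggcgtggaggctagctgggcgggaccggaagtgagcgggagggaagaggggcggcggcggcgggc
Cdk1, chr10:69352913-69353062, minus strand: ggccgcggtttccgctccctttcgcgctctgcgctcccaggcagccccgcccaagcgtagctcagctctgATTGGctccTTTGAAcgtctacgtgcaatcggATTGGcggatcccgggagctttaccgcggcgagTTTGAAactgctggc
Mki67, chr7:135716380-135716529, minus strand: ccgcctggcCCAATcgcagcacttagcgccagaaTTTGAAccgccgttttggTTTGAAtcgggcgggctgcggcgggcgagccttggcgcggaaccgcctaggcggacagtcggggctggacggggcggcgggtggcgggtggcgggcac
Aspm, chr1:139454623-139454772, plus strand: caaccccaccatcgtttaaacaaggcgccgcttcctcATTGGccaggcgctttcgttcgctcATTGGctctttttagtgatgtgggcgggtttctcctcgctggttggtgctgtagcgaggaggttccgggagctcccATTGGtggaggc
In Cenpf and Aspm a TTTGAA match lies elsewhere in the window of 300 bases. Mki67, whose protein marks cycling cells, was at 876 to 966 CPM in con and 417 to 524 CPM in R2b at 12 hours, and at 761 to 851 CPM and 541 to 673 CPM at 24 hours.

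Genes of DNA replication fell at both times, with a smaller change between them. At 12 hours 36 of 40 fell, against 16.0% of all genes, with a median of -0.66. At 24 hours 20 fell, against 4.61% of all genes, with a median of -0.32. The difference was positive in 37 of the 40, and 18 of these had an unadjusted p under 0.05, against 7.97% of all genes. That count ran from 7 without both pools of litter 1 at 12 hours to 27 with the litter block. The 24-hour count was 31 with the block, 11 in a fit of all 22 libraries, and 2 to 10 without con pool 3 or 4, without R2b pool 1 or 2, or without both pools of litter 1, 2 or 3. Gins3, a subunit of the helicase complex, was at 25.0 to 26.0 CPM in con and 13.5 to 16.5 CPM in R2b at 12 hours, and at 31.1 to 35.5 CPM and 26.7 to 33.9 CPM at 24 hours. The groups were apart at 12 hours and overlapped at 24 hours, with a difference of 0.59 (0.28 to 0.89). Rrm1, a subunit of the enzyme that makes deoxynucleotides, fell by 0.80 and by 0.40. Pola1 and Rfc4, of polymerase alpha and the clamp loader, had differences of 0.52 and 0.54, and the 24-hour effect of Pola1, -0.24, was called with the block (FDR 0.04). Ccnd1, the D cyclin that links growth factor signals to the cell cycle, did not share this pattern. It fell by 0.59 and by 0.55, with a difference of 0.05, and was at 1080 to 1263 CPM in the con pools of both exposures and 732 to 896 CPM in the R2b pools.

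**Figure D3:**
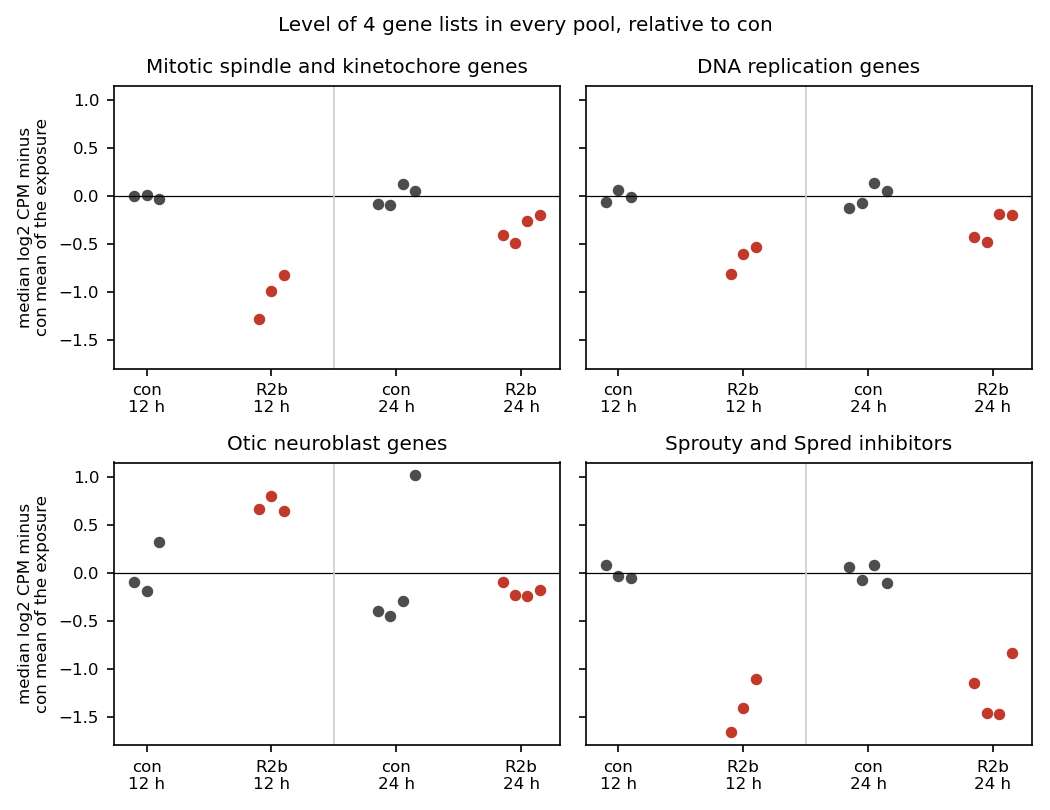
Median log2 CPM of 4 gene lists in each pool, relative to the con mean of the same exposure (vertical axis), con in grey and R2b in red. The mitotic list lies at -1.28 to -0.82 in the 12-hour R2b pools and at -0.49 to -0.20 in the 24-hour ones, and con pool 4 at 24 hours stands alone at 1.01 for the otic neuroblast genes.

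Some biosynthetic genes also fell at 12 hours. Of 31 cholesterol and fatty acid synthesis genes 13 fell at 12 hours, against 16.0% of all genes, with a median of -0.32. At 24 hours 2 fell, a share near the 4.61% of all genes, with a median of -0.17. Sqle, the squalene epoxidase, was at 130 to 146 CPM in con and 82.6 to 93.3 CPM in R2b at 12 hours, and its effects were -0.61 and -0.26, the latter called with the litter block (FDR 0.0169). The sterol transporter Stard4 had effects of -0.53 and -0.10, and the late enzymes Sc5d and Nsdhl -0.40 and -0.38 at 12 hours against -0.10 and -0.07. These 4 were the members with an unadjusted p under 0.05 for the difference, beside 7.97% of all genes. The 12-hour count dropped to 1 without both pools of litter 1 and to 7 without R2b pool 1, and the 24-hour count was 8 with the litter block. Cytoplasmic ribosomal protein genes fell in 17 of 74 cases at 12 hours, beside 16.0% of all genes, and in 0 at 24 hours, where 10 had an unadjusted p under 0.05, the block gave 3 and DESeq2 5. Of the 74 differences, 7 were positive and 3 negative at an unadjusted p under 0.05, beside 7.97% and 3.23% of all genes. Their reads can be shared with many processed gene copies, so single members such as Rps25 (effects of -1.47 and -0.29) are uncertain. Their 12-hour count ran from 8 without both pools of litter 1 to 33 without R2b pool 2.

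Some neuroblast genes rose at 12 hours. Otic neuroblasts are specified by Neurog1, then turn on Neurod1 and neuronal cytoskeleton genes as they leave the epithelium. Of 17 genes tested 5 rose at 12 hours, against 10.9% of all genes, and 0 passed at 24 hours. At 24 hours 5 had an unadjusted p under 0.05 in edgeR's test, and DESeq2 called 3, all lower. The litter block called 2 higher and 1 lower there. The 5 called at 12 hours were Neurog1, Neurod1, the Eya family cofactor Eya2, the neuronal tubulin Tubb3 and the microtubule-binding Dcx. Neurog1 was at 28.4, 27.3 and 27.2 CPM in con and 49.6, 49.6 and 41.4 CPM in R2b at 12 hours. In the longer exposure it was at 15, 12.3, 24.8 and 16.0 CPM in con and 19.9, 21.7, 24.8 and 22.4 CPM in R2b. The groups were apart at 12 hours and overlapped at 24 hours. Eya2 was at 29.6, 26.7 and 36.2 CPM in con and 61.9, 53.3 and 65.9 CPM in R2b at 12 hours, an effect of 0.97 (FDR 0.00403). At 24 hours its con pools were at 25.8, 27.1, 33.5 and 50.7 CPM and its R2b pools at 34.2, 36.4, 29.5 and 36.8 CPM, an effect of -0.00. The list's median was 0.65 at 12 hours and -0.43 at 24 hours, or 0.17 without con pool 4 of E9.25+24h. The difference was negative in 16 of 17, and 10 of these had an unadjusted p under 0.05, against 3.23% of all genes. None passed by FDR, with or without the litter block.

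That pattern rests in part on con pool 4 of E9.25+24h. In it Elavl3 was at 37.5 CPM against 6.72 to 8.31 CPM in the other con pools, Stmn2 at 31.3 CPM against 0.784 to 1.18 CPM, and Tubb3 at 120 CPM against 48.6 to 62.2 CPM. It is the pool with the most blood, endothelium and hindbrain marker counts. Without it, the median difference was -0.49 and 8 members had a negative difference at an unadjusted p under 0.05. By the same measure Gap43 had a positive difference, of 0.80. None of the members' differences passed by FDR in that fit. Eya2 then had a difference of -0.72, Tubb3 -0.79, Dcx -0.47 and Neurod1 -0.46, and their 24-hour effects were 0.25, 0.20, 0.14 and 0.05. Without it, 10 members passed at 12 hours, and Gap43 and Stmn2, genes of growing axons, rose at 24 hours by 1.42 (FDR 0.00195) and 1.48 (FDR 0.0453). The 12-hour count was also 8 with the litter block, 2 in a fit of all 22 libraries, 2 or 3 without con pool 1, 2 or 3 or without R2b pool 1, and 0 without both pools of litter 1. In the fit of all 22 libraries 2 members had a negative difference at an unadjusted p under 0.05, and without both pools of litter 1 or of litter 2 at 12 hours 6 had one. The plot of list levels by pool shows the lone con pool. How far neighbouring tissue in that pool sets the difference was not tested beyond leaving it out.

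Of 16 Notch pathway genes tested, 7 rose and 1 fell at 12 hours, where 10.9% and 16.0% of all genes did. At 24 hours 4 rose, against 8.30% of all genes, and the medians were 0.45 and 0.13. The difference was negative in 11 and positive in 5. An unadjusted p under 0.05 was found for 2, both negative, against 3.23% of all genes, and 0 passed by FDR with or without the litter block. The receptor gene Notch1 was at 217, 255 and 253 CPM in con and 416, 282 and 384 CPM in R2b at 12 hours, a rise of 0.58. At 24 hours it was at 228 to 255 CPM against 269 to 288 CPM, an effect of 0.20 that did not pass (FDR 0.198). Its difference was -0.38 (-0.70 to -0.06). The ligand gene Jag2 had effects of 0.54 and -0.41, neither of which passed. The fringe gene Lfng rose alike in both, by 0.81 and 0.84. The 12-hour count was 3 or 4 without con pool 1, R2b pool 1 or 3, or both pools of litter 1 or 3, and the 24-hour count was 1 or 2 without most single pools.

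Beyond the lists, 1293 of the 1689 genes that rose at 12 hours had a smaller effect at 24 hours, 270 of them (16.0% of the 1689) with an unadjusted p of the difference under 0.05. Over all genes 3.23% had a negative difference by this measure, and picking genes that rose at 12 hours favours that sign. The 6 named for the smallest p of the difference were Spock2, Aqp6, Ryr3, Tuba4a, Crispld2 and Numbl. Spock2, a secreted proteoglycan, was at 52.5, 58.8 and 55.0 CPM in con and 91.3, 83.4 and 87.4 CPM in R2b at 12 hours. At 24 hours its con pools were at 40.3 to 50.5 CPM and its R2b pools at 36.4 to 45.7 CPM. The groups were well apart at 12 hours and mixed at 24 hours, with a difference of -0.73 (-1.03 to -0.44, FDR 0.158). Numbl, an adaptor protein related to Numb that acts on Notch signalling, was at 31.8 to 34.9 CPM in con and 67.5, 44.4 and 65.3 CPM in R2b at 12 hours, and its effects were 0.83 and 0.14. The effects of the tubulin gene Tuba4a were 0.77 and -0.15, and those of Crispld2, a secreted protein, 0.70 and -0.08. Aqp6, a water channel, rose by 0.68 at 12 hours and fell by 0.82 at 24 hours, and Ryr3, a calcium release channel, rose by 0.94 and fell by 0.87. With Ppp1r32, picked here after its values were seen and at means of only 0.147 to 0.595 CPM, these were the 3 genes called in opposite directions. Ryr3 was at 1.23 to 2.80 CPM in con and 3.04 to 4.62 CPM in R2b at 12 hours, and its 24-hour call was lost with the litter block (FDR 0.0702) and in 18 of 30 alternatives in all.

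**Figure D4:**
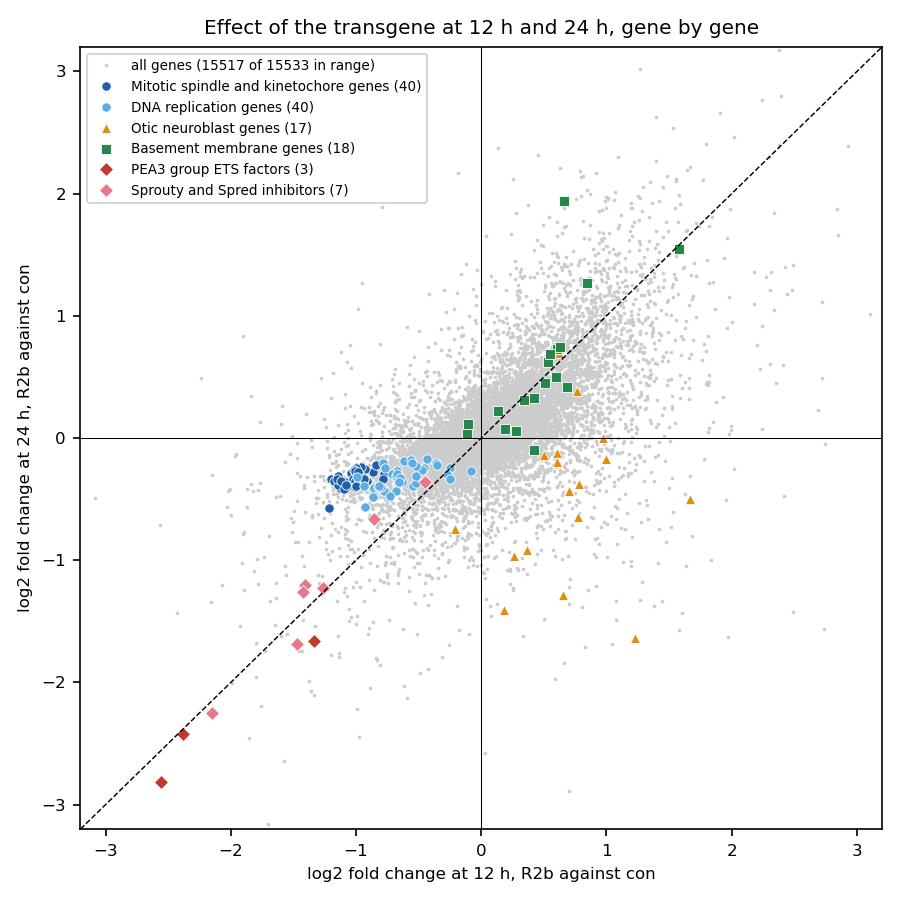
Effect of the transgene at 12 hours (horizontal axis) and at 24 hours (vertical axis), as log2 fold change, for 15517 of 15533 genes in grey, with 6 gene lists in colour and the line of equal effects dashed. Mitotic genes lie above the line around a median of -1.004 on the horizontal axis, 16 of 17 neuroblast genes lie below it (15 without con pool 4 of E9.25+24h), and PEA3 group factors and Sprouty and Spred inhibitors lie along it.

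Of the 1290 genes that rose at 24 hours, 892 had a smaller effect at 12 hours, 136 of them (10.5% of the 1290) with an unadjusted p of the difference under 0.05. That share is near the 7.97% of all genes with a positive difference by this measure. Picking genes called at 24 hours also favours that sign. Named for the smallest p of the difference were Col11a1, Hapln1, Krt7, Spp1, Aldh1a1 and Tpm1. Hapln1, a link protein that ties proteoglycans to hyaluronan, was at 109, 65.0 and 90.6 CPM in con and 135, 169 and 154 CPM in R2b at 12 hours. After 24 hours it stood at 57.1, 44.6, 29.0 and 39.2 CPM in con and 212, 211, 176 and 149 CPM in R2b. The groups were apart in both exposures, with effects of 0.79 and 2.14 and a difference of 1.34 (0.73 to 1.96, FDR 0.158). The 12-hour call of Hapln1 was lost in 4 of 30 alternatives, among them the fit without con pool 2. Col11a1, a fibrillar collagen chain, was at 404 to 420 CPM in con and 576 to 616 CPM in R2b at 12 hours, and at 357 to 422 CPM and 739 to 976 CPM at 24 hours. Its effects were 0.53 and 1.16, and the difference of 0.62 (0.36 to 0.89) passed with the litter block (FDR 0.0409). Spp1, the secreted matrix protein osteopontin, was at 27.2, 41.9 and 29.7 CPM in con and 42.2, 49.6 and 42.3 CPM in R2b at 12 hours, which did not pass (FDR 0.116, and 0.025 with the block). At 24 hours it was at 32.8 to 43.3 CPM against 94.9 to 165 CPM, an effect of 1.62. Tpm1, an actin-binding tropomyosin, had effects of 0.15 and 0.62. With the litter as a block the differences of Spp1 and Aldh1a1 also passed, each at FDR 0.0458.

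Keratins, claudins and annexins rose in 6 of 16 cases at 12 hours, against 10.9% of all genes. At 24 hours 8 rose, against 8.30% of all genes, and 0 fell at either time. With the block 13 rose at each time, and 5 rose at 24 hours without R2b pool 1 or 2. Krt7, a keratin of simple epithelia, was at 33.3, 36.4 and 32.4 CPM in con and 62.2, 51.8 and 55.9 CPM in R2b at 12 hours. In the longer exposure it was at 27.7, 27.3, 21.6 and 24.3 CPM in con and 74.4, 72.9, 87.1 and 57.9 CPM in R2b. Its effects were 0.74 and 1.53, with a difference of 0.80 (0.42 to 1.17). The membrane-binding Anxa2 rose by 0.94 and by 1.59, and Krt7 and Anxa2 were the 2 of 16 members with an unadjusted p under 0.05 for the difference, whose median was 0.03. Krt19 and Cldn3 rose alike in both exposures, by 0.74 and 0.74 and by 0.97 and 0.95. Basement membrane genes code for type IV collagen, laminins and their partners. Of 18 tested, 10 rose at 12 hours and 11 at 24 hours, against 10.9% and 8.30% of all genes. None was called lower, and the medians were 0.52 and 0.43. The laminin chain gene Lamb3 rose by 1.58 and by 1.55. Lama3, a partner chain of Lamb3, was low, at 0.360 to 0.597 CPM in con and 0.557 to 0.935 CPM in R2b at 12 hours, and passed only at 24 hours, with 0.261 to 0.426 CPM against 0.704 to 1.62 CPM. As a group the basement membrane genes therefore had a median difference of 0.03, close to that of all genes, and 1 member with an unadjusted p under 0.05. Without R2b pool 1, or without both pools of litter 1, 2 or 3, 7 of the 18 were called at 24 hours.

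Genes of retinoic acid metabolism split. Of 15 tested, 3 rose at 12 hours (7 with the block, 1 without con pool 2 or R2b pool 3), and 6 rose and 1 fell at 24 hours. Over all genes 10.9% rose at 12 hours, and 8.30% rose and 4.61% fell at 24 hours. Aldh1a1 makes retinoic acid. It was at 34.8, 32.7 and 36.9 CPM in con and 37.8, 50.4 and 39.9 CPM in R2b at 12 hours, and at 31.4, 34.9, 32.5 and 23.4 CPM against 70.7, 74.4, 89.1 and 57.1 CPM at 24 hours. The separation was narrow at 12 hours (effect 0.30, FDR 0.196) and wide at 24 hours (1.26, FDR 8.17e-05), with a difference of 0.96 (0.49 to 1.42). Aldh1a3, of the same enzyme family, rose by 1.64 already at 12 hours and by 2.19 at 24 hours. Cyp26c1, which breaks retinoic acid down, was at 72.5 to 91.8 CPM in con and 83.9 to 106 CPM in R2b at 12 hours, and fell by 0.48 at 24 hours. Its difference was -0.70 (-1.13 to -0.27). The receptor gene Rara and the retinol transporter gene Stra6 had differences of -0.27 and -0.36. Of the 21 BMP pathway genes 4 had a positive difference at an unadjusted p under 0.05, against 7.97% of all genes. Bmper, an extracellular BMP-binding protein, rose by 1.12 and by 1.82, from 46.9 to 57.3 CPM in con to 113 to 122 CPM in R2b at 12 hours and from 40.3 to 64.8 CPM to 151 to 215 CPM at 24 hours. Its difference of 0.70 (0.24 to 1.16) passed with the litter block (FDR 0.0458). The BMP antagonist gene Chrdl1 and the pseudoreceptor gene Bambi passed only at 24 hours, with rises of 0.65 and 0.34. The ligand gene Bmp2 was low, at 0.727 to 4.45 CPM at 12 hours, and its fall of 1.28 there was lost in 16 of 30 alternatives. In the Wnt and Hedgehog pathways few differences were seen by the same measure. The Wnt targets Axin2 and Sp5 rose by 0.25 and 0.85 at 12 hours and by 0.40 and 1.07 at 24 hours, and the Hedgehog targets Gli1 and Ptch1 by 0.73 and 0.53 and by 0.62 and 0.44. Of 29 Wnt pathway genes 1 had a difference at an unadjusted p under 0.05, the receptor gene Fzd8 at -0.33. Of 12 Hedgehog pathway genes 0 had one, and of all genes 11.2% had one in either direction.

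A few transcription factors that pattern the otocyst had a larger fall at 24 hours. None of their differences passed by FDR in the main fit. Of 716 genes that fell at 24 hours, 263 had a smaller fall or a rise at 12 hours, 59 of them (8.24% of the 716) with an unadjusted p of the difference under 0.05. Over all genes 3.23% had a negative difference by this measure, and picking genes that fell at 24 hours favours that sign. Otx1, a homeobox gene of the ventral otic epithelium, was at 131, 134 and 102 CPM in con and 60.4, 59.7 and 81.9 CPM in R2b at 12 hours. At 24 hours it was at 62.1, 67.4, 56.2 and 44.1 CPM in con and 20.5, 23.7, 18.3 and 18.3 CPM in R2b. The groups were apart in both exposures, with effects of -0.86 and -1.51 and a difference of -0.65 (-1.11 to -0.18, FDR 0.34). Otx2, its close relative, had effects of -0.99, which did not pass (FDR 0.0841, and 0.00754 with the block), and -2.22. Its R2b pools at 24 hours were at 9.46, 8.35, 2.51 and 3.24 CPM against 17.6 to 40.0 CPM in con. Gata2, a zinc finger factor of the otocyst, was at 107, 89.7 and 101 CPM in con and 99.1, 69.7 and 80.8 CPM in R2b at 12 hours, so that the groups overlapped. At 24 hours it was at 71.4, 71.4, 39.1 and 43.2 CPM in con and 33.4, 36.5, 19.96 and 23.1 CPM in R2b. Within each litter R2b was below con in both exposures. The effects of Gata2 were -0.25 and -0.997, the 12-hour effect passed with the block (FDR 0.0187), and the difference was -0.74 (-1.45 to -0.04), or -0.72 with the block, where it passed (FDR 0.0409).

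Of 10 dorsal otic factors, 3 rose and 0 fell at 12 hours, and 3 rose and 3 fell at 24 hours (5 and 5 with the litter block). Over all genes 10.9% rose and 16.0% fell at 12 hours, and 8.30% rose and 4.61% fell at 24 hours. Of the 10 factors, only Dlx3 had a difference with an unadjusted p under 0.05. The 12-hour count was 1 without con pool 1 or 2 or without R2b pool 1 or 3. Dlx3 was at 25.7 to 26.7 CPM in con and 17.2 to 21.7 CPM in R2b at 12 hours, an effect of -0.41 that did not pass (FDR 0.124, and 0.0211 with the block). At 24 hours its con pools were at 14.0, 15, 14.5 and 8.39 CPM and its R2b pools at 5.61, 7.35, 6.07 and 4.74 CPM, a fall of 1.12. Hmx2 and Hmx3, homeobox genes of the vestibular part of the ear, had effects of -0.54 and -0.13 at 12 hours, neither called, and fell by 1.06 and 0.72 at 24 hours. Their differences had unadjusted p above 0.05. The 3 that rose at 24 hours were Gbx2, by 0.42, and Msx1 and Msx2, by 0.70 and 0.76. Other otic factors had like effects at both times. Pax2 rose by 0.75 and by 0.64, Irx3 by 0.81 and by 0.83 and Irx5 by 1.02 and by 0.93. A further 27 otic transcription factor genes came from the Pax, Eya, Otx, Gata and Tbx families among others. Of these, 6 rose and 3 fell at 12 hours (6 fell with the block), and 6 rose and 7 fell at 24 hours. Their median difference was -0.12. The 3 with an unadjusted p under 0.05 for the difference, Otx1, Otx2 and Gata2, were all negative, beside 3.23% of all genes.

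Among axon guidance genes, Unc5c, a netrin receptor, was at 209, 207 and 222 CPM in con and 195, 197 and 173 CPM in R2b at 12 hours, which did not pass (FDR 0.0807). After 24 hours it stood at 242, 229, 229 and 206 CPM in con and 151, 142, 156 and 148 CPM in R2b. R2b lay below con in both exposures, by a small gap at 12 hours and a wide one at 24 hours. The effect at 24 hours was -0.60 and the difference -0.43 (-0.63 to -0.23, FDR 0.158). The repulsive ligand gene Sema3a had effects of 0.08 and 0.54, the latter called, while Slit3 rose by 0.69 and by 0.40. Coro2b, an actin-binding coronin, was at 32.9 to 34.5 CPM in con and 27.7 to 35.6 CPM in R2b at 12 hours, and at 23.0 to 26.7 CPM and 14.7 to 16.9 CPM at 24 hours, an effect of -0.66. Cacng7, a channel subunit, and Adgrb2, an adhesion receptor, fell by 0.49 and 0.46 at 24 hours and had effects of 0.04 and 0.33 at 12 hours that did not pass. The call of Adgrb2 was lost in 20 of 30 alternatives.

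**Figure D5:**
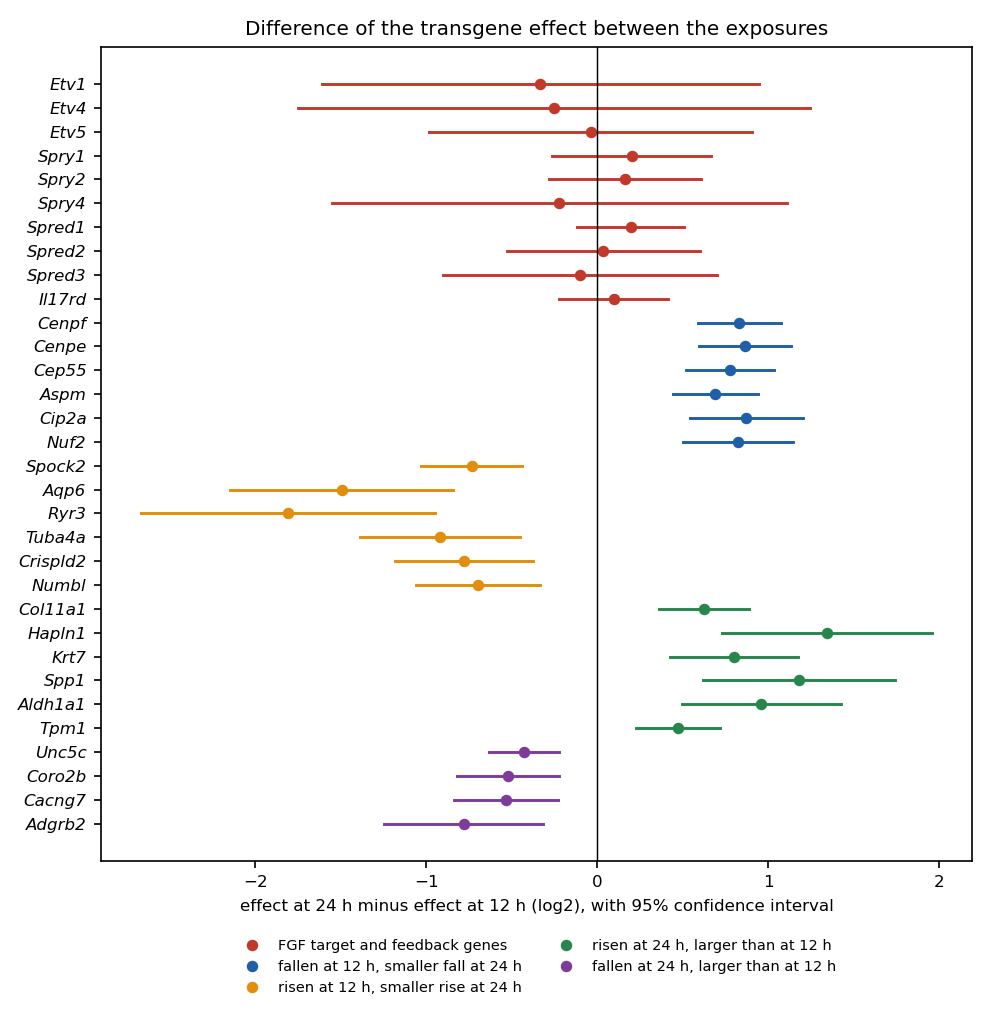
Effect at 24 hours minus effect at 12 hours (horizontal axis, log2), with its 95% confidence interval, for the FGF target and feedback genes and for the genes named in each of 4 classes. The intervals of all 10 FGF target and feedback genes include 0, and those of the class genes do not, as the rule that named them required.

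Markers of neighbouring tissues were counted beside these results. Of 10 blood, 12 endothelium and 5 hindbrain markers tested, 0 passed in either exposure by edgeR's test. By that test 1 endothelium marker had an unadjusted p under 0.05 in each. Of 13 mesenchyme markers 1 fell in each exposure, where 16.0% of all genes fell at 12 hours and 4.61% at 24 hours. All 10 blood markers had effects below 0 in both exposures (medians -1.65 and -0.98). So did 9 of 12 endothelium markers at 12 hours and all 12 at 24 hours. Hindbrain effects were above 0 for 5 of 5 and 3 of 5. With the litter block 1 blood marker was called lower at 12 hours, and 1 endothelium marker in each exposure. No marker was at 0 in every pool. Summed mesenchyme markers were at 125 to 406 CPM in con and 230 to 417 CPM in R2b at 12 hours, so the groups overlapped. Where 10.9% of all genes rose at 12 hours and 8.30% at 24 hours, 2 of 5 markers of neural crest and glia rose in each exposure. Their summed level was 1168 to 1252 CPM in con and 1515 to 1709 CPM in R2b at 12 hours, and 669 to 1013 CPM and 871 to 1131 CPM at 24 hours. Which cells the neural crest and glia marker reads came from was not tested, so this sum does not measure neural crest content. None of the 45 markers of these 5 lists had a difference at an unadjusted p under 0.05. Their part in the differences above was not tested.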

How the data were processed

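The authors deposited 1 table of read counts per gene for RNA from pooled otocyst epithelia, made from poly(A)-selected stranded libraries per the labels' protocols. Per the submitters' processing notes, reads were aligned with Novoalign 2.08.03 to mm10; the counting tool is not given in the sources used here. Of 24 columns, 22 matched a labelled sample; the 2 that named no sample were not used, and 2 samples labelled E9.75+12h were not analysed here. Every gene in the table had a total of at least 100 counts. Symbols came from a table of gene names, for 15522 of 15736 genes, and gene coordinates from the GENCODE annotation of GRCm38, the assembly behind mm10.

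The 14 libraries were fitted together with edgeR 4.0.16 (R 4.3.3), with filterByExpr, TMM scaling and 4 group means. The quasi-likelihood test, two-sided with Benjamini-Hochberg adjustment over 15533 genes, gave the effect of the transgene in each exposure and the difference of the effects. Fold changes are on the log2 scale with a prior count of 0.125, and intervals are 95%. The steps were tested on simulated data. Library totals were 18.7 to 25.8 M counts, and no replicate pair was a duplicate. Each exposure has its own number at the start of its sample titles, and the titles do not say what it stands for. Any batch that it marks cannot be told apart from exposure, and levels are not tested across exposures.

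Genes were named by rule: the transgene parts, genes past the threshold for the difference, the 6 with the smallest p of the difference in each of 4 classes (called in 1 exposure, groups not overlapping there, mean log2 CPM of at least 1), up to 4 members per list with an unadjusted p under 0.05, and all FGF target and feedback genes. Further list members were named after their values were seen. The members and the 34 gene lists were chosen with earlier results of these data known. Con and R2b pools of 1 number came from 1 pregnant female per the labels, so the litter block pairs them. Residual correlations within a litter were -0.08, -0.24 and -0.25 at E9.75+12h and 0.38, 0.46, 0.74 and 0.73 at E9.25+24h. Alternatives were all 22 libraries, median-of-ratios scaling, other filters, the block, robust dispersion, DESeq2 1.42.0, limma 3.58.1 voom, each exposure alone, a minimum fold change and leaving out each pool or litter. Promoter windows came from RefSeq (GRCm38.p6).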

Additional observations from a re-analysis of the deposited data

Results flagged for a closer look

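Of 154 groups of 4 pools looked at among the named genes, 10 had a pool far from the others, all of them at E9.25+24h, which alone has groups of 4. Such a gap arises by chance in some groups at the 95% level. In con pool 4, Spock2 was at 50.5 CPM (others 40.3 to 41.7), Crispld2 at 8.85 CPM (11.6 to 11.9), Dlx3 at 8.39 CPM (14.0 to 15), Spred3 at 39.1 CPM (51.2 to 52.1), Gpi1 at 263 CPM (217 to 224) and Adamts3 at 3.87 CPM (2.56 to 2.70). In R2b pool 4, Bambi was at 54.5 CPM (65.6 to 67.9), Stard4 at 67.9 CPM (51.1 to 53.9) and Spred2 at 34.2 CPM (21.0 to 23.1). In con pool 3, Aqp6 was at 2.88 CPM (2.15 to 2.18). Litter 4 thus held 9 of the 10, and it is the litter with the most mesenchyme marker counts; the part of those cells in the gaps was not tested.

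Cenpf had effects that differed between the exposures by a test of the difference itself, 0.83 on the log2 scale.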

How the results depend on the processing

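The number of genes called for the difference was 1, and it moved with the processing: 0 with all 22 libraries (1908 at an unadjusted p under 0.05), 0 with median-of-ratios scaling (1600), 2 with a mean CPM of at least 1, 2 with robust dispersion, 57 with the replicate block (54 positive) and 112 with DESeq2 (97 positive). Leaving out pools or litters gave 0 to 913. With a fold change of at least 1.5 as well, 1644 genes were called at 12 hours and 981 at 24 hours. Leave-out fits gave 1847 to 5226 at 12 hours and 776 to 2509 at 24 hours, the lowest without both pools of litter 1 and of litter 2. At 12 hours the split was 1689 up and 2491 down, but 1518 and 1455 with that exposure fitted alone. The causes were not tested. Of 77 named genes, 69 kept the sign of the difference in all 29 alternatives. The other 8 are FGF target and feedback genes with values near 0: Etv5 had 0.025 with the replicate block and 0.065 with limma voom (-0.38 to 0.58 in leave-out fits), and Spred3 0.017 and 0.080 (-0.44 to 0.59). Leave-out fits gave -0.75 to 0.63 for Etv4, -0.024 to 0.44 for Spry1, -0.032 to 0.30 for Spry2, -0.61 to 0.10 for Spry4, -0.17 to 0.36 for Spred2 and -0.021 to 0.29 for Il17rd. Beside the calls given above, the block added 12-hour calls for Gpi1, Rara, Rps26 and Srrm4 (FDR 0.0187, 0.0412, 0.0248 and 0.04) and changed no other call of a named gene's effect. Genes under about 1 CPM, such as Lama3 and Ppp1r32, are limited by depth.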

Other observations

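A few further groups of genes were also counted in both exposures. Of 17 p53 target genes 5 rose and 2 fell at 12 hours, and 3 rose at 24 hours; without con pool 2 of E9.75+12h, 2 rose at 12 hours. Of 25 protease genes of the Adam, Adamts and Mmp families 7 rose and 3 fell at 12 hours, and 5 rose and 2 fell at 24 hours; without con pool 1 of E9.75+12h, 4 rose at 12 hours. Over all genes tested, 10.9% rose and 16.0% fell at 12 hours, and 8.30% rose and 4.61% fell at 24 hours. Among guidance genes, the receptors Ephb1 and Dcc rose in both exposures, by 1.62 and 1.401 and by 0.74 and 0.66. Six2, a homeobox factor, fell in both, by 1.34 and by 2.10. Foxi1, a forkhead factor, had an effect of 0.66 at 12 hours that did not pass and rose by 1.72 at 24 hours. Of 24 glycolysis and hypoxia genes 1 rose and 2 fell at 12 hours. Hk1, the first enzyme of glycolysis, rose by 0.53 at 12 hours and had an effect of 0.01 at 24 hours.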
